A study of Mus musculus with 10 samples.

Results

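Integrins are the cell surface receptors that hold cells to the extracellular matrix and to other cells, and laminins are the large glycoproteins that build basement membranes and serve many integrins as ligands. The set described here holds 36 genes: 18 integrin alpha chains, 8 integrin beta chains and 10 laminin chains. They were taken by gene symbol from a list whose rule uses no measured value, though the list was drawn up with earlier results of these data known, and each symbol matched 1 of the 52636 gene rows of the count table. The data are RNA sequencing counts of 10 melanoma tumours from mice. All of them carried BrafCA, a Cre-activatable oncogenic Braf allele, and Cdkn2af/f, a floxed tumour suppressor allele. Arf6Q67L, which encodes a GTP-locked version of the trafficking GTPase ARF6, was added in 6 tumours; the 4 control tumours were without it. The labels used here name neither the promoter or Cre that acts on these alleles, nor age, litter or batch, and they do not say whether each tumour came from its own animal. If some did not, the p-values below measure only the spread between these samples. Library numbers follow genotype, so the order of the libraries cannot be told apart from it.

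The libraries held 28635414 to 40869091 counts, so a count of 0 allows up to 3 counts, or 0.0734 to 0.105 CPM (reads of a gene per 1e6 reads counted); such floors cover counting error only. The 36 genes took between 0.510% of all counts (control 4) and 0.805% (Arf6Q67L 1). Arf6 itself averaged 104 CPM ± 21.3 (SD, n = 6) where Arf6Q67L was present and 93.0 CPM ± 17.4 (SD, n = 4) where it was not (log2 fold change 0.17, SE 0.18, edgeR adjusted p = 0.758); gene counts do not separate the mutant from the normal allele. Of the melanocyte markers that define the labelled tumour type, Tyr and Dct had 0 counts in all 10 tumours, Mlana reached 0.101 CPM at most and Sox10 lay between 0.0629 and 2.83 CPM. Mitf, the lineage's transcription factor, averaged 17.0 CPM ± 5.57 (SD, n = 6) in the Arf6Q67L group and 16.6 CPM ± 4.18 (SD, n = 4) in controls. Pmel, a melanosome gene, was at 0.524 to 0.940 CPM. Of the 6 melanocyte markers, Mitf was thus the only one above 3 CPM in any tumour. By Xist and Y-linked genes, 3 of 6 Arf6Q67L tumours and 1 of 4 controls were from females.

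An integrin is a dimer of an alpha and a beta chain, and the pairing sets the ligand: collagens, laminins, proteins with an RGD motif such as fibronectin and vitronectin, or counter-receptors on other cells. Itgb1 pairs with many alpha chains, whereas Itgb2 and Itgb7 occur on leukocytes. A laminin is a trimer of an alpha, a beta and a gamma chain, and the alpha chain largely sets which receptors bind. Integrins cycle between the plasma membrane and endosomes, and ARF6 is known for its part in that recycling, which acts on the protein and need not alter the transcript. The comparison of genotypes below concerns transcript levels alone.

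No member passed the test between genotypes in edgeR's quasi-likelihood fit at a Benjamini-Hochberg adjusted p under 0.05, and neither did any other gene (0 of 17286 genes tested, 0%). At an unadjusted p under 0.05, the fit held 6 of the 35 members tested, 1 higher in Arf6Q67L tumours (Itga10) and 5 lower (Itgb4, Lama3, Itgax, Itgb2 and Lamb3), which is 17.1% of them. Over all genes tested, that share was 11.7%, made of 4.65% higher and 7.05% lower. DESeq2's Wald test on the same genes called 3 members at an adjusted p under 0.05, namely Itga10 as higher and Itgb4 and Lama3 as lower, which is 8.57% against 2.39% of all genes (0.966% higher and 1.42% lower). Limma-voom called no member and 1 gene in each direction. With each tumour left out in turn, DESeq2 called Itga10 in all 10 fits, where 0.476% to 1.32% of all genes were called higher. It called Lama3 in 6 of the 10 fits (not without Arf6Q67L 1, Arf6Q67L 6, control 3 or control 4) and Itgb4 in 2 (without control 1 and without control 3), where 0.561% to 2.32% of all genes were called lower. DESeq2 also called Lama2 as higher without control 2, and Itgax and Itgb2 as lower without control 3. Without control 4, the lower members at an unadjusted p under 0.05 were 3 (Itga1, Itgb4 and Lama3) beside 4.31% of all genes. The remaining member, Itgb6, the beta chain of an epithelial RGD receptor, was under the filter on low counts at 0 to 1.65 CPM.

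Log2 fold changes of Arf6Q67L over control were positive for 18 and negative for 17 of the 35 members, with a median of 0.01; of all genes tested, 49.7% were positive and 50.3% negative, with a median of -0.00. Signs differed between the ligand classes. The 7 leukocyte integrin chains were all negative with a median of -0.73, and so were both members of the alpha4/alpha9 class (median -0.54). Collagen-binding alpha chains were positive for 3 of 4, with a median of 0.52. Laminin-binding integrin chains (3 of 4 positive, median 0.06), RGD-binding chains (5 of 7 positive, median 0.07) and the 3 classes of laminin chains (6 of 10 positive together, medians between 0.06 and 0.19) lay closer to 0. The collagen-binding median lies between Itga10 (1.0) and Itga11 (0.05, SE 0.67). Chains of this class were positive for 2 of 4 by limma-voom and without Arf6Q67L 2, Arf6Q67L 4 or control 1. They were positive for 4 of 4 without control 2. With other fits or a tumour left out, the medians of the leukocyte, alpha4/alpha9 and collagen-binding classes kept their sign. That of the laminin-binding chains was -0.08 with sex as a term (1 of 4 positive), -0.18 without Arf6Q67L 2 (1 of 4), -0.08 without Arf6Q67L 1 and -0.05 without control 3, and no chain of this class was positive without control 2 (median -0.14). The RGD-binding median was -0.07 without Arf6Q67L 6 (3 of 7 positive), the laminin beta median -0.00673 without Arf6Q67L 1, the laminin alpha median -0.04 without control 1 and -0.000994 without control 2, and the laminin gamma median -0.18 without control 4 and -0.04 without control 2. These are descriptions of the members, with no test of a class.

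**Figure D1:**
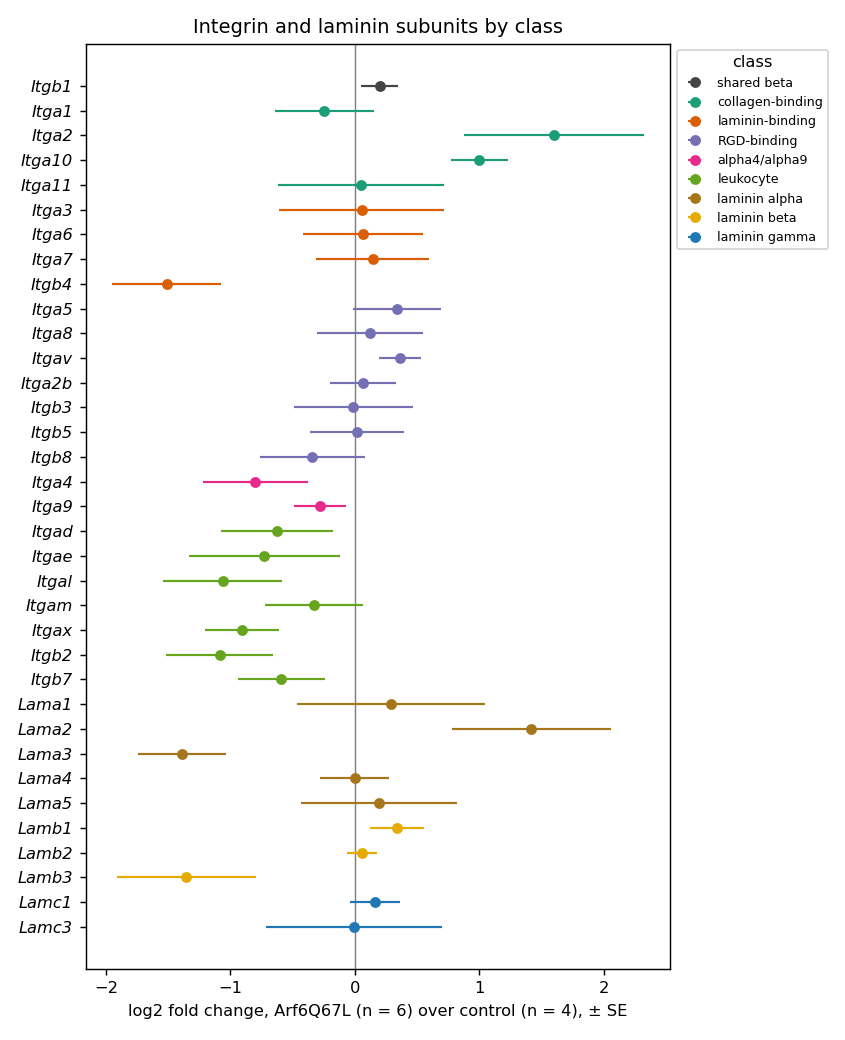
Log2 fold change of Arf6Q67L over control tumours (horizontal axis) for the 35 members tested, grouped by class, with points for edgeR estimates and bars for their standard errors. All 7 leukocyte chains lie below 0, while Itga10, Itga2 and Lama2 are the highest and Itgb4, Lama3 and Lamb3 the lowest.

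Per kilobase of exon, which allows levels to be set between genes, Itgb1 was the most abundant subunit at a mean of 324 CPM per kb over all 10 tumours (range 271 to 452). It was followed by Itga5, the fibronectin receptor's alpha chain, at 101 (range 45.2 to 177) and by the laminin beta chain Lamb1 at 81.8 (range 44.1 to 129). Itgb1's lowest tumour was above the highest tumour of both. The ranges of Itga5 and Lamb1 overlapped, and with the longest transcript as the length their order was exchanged. Next came Itgb5 at 64.3, Itga1 at 57.4 and Lamc1 at 55.8 CPM per kb, whose ranges (31.2 to 121, 16.4 to 96.1 and 34.9 to 84.3) did not separate them. With the longest transcript, the order was Itga1 (97.3), Itgb5 (69.6), Itga6 (66.1) and Lamc1 (60.5). Itga6 was at 31.6 CPM per kb of exon, so its level depended strongly on the length used. At the lower end stood Lamc3 at 0.110, Lamb3 at 0.0968, Lama1 at 0.0750 and Itgb6 at 0.0633 CPM per kb, again with overlapping ranges. Among laminin chains, Lamb1 and Lamc1 were followed by Lama4 at 28.1 CPM per kb (range 15.3 to 45), or 56.1 with the longest transcript.

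**Figure D2:**
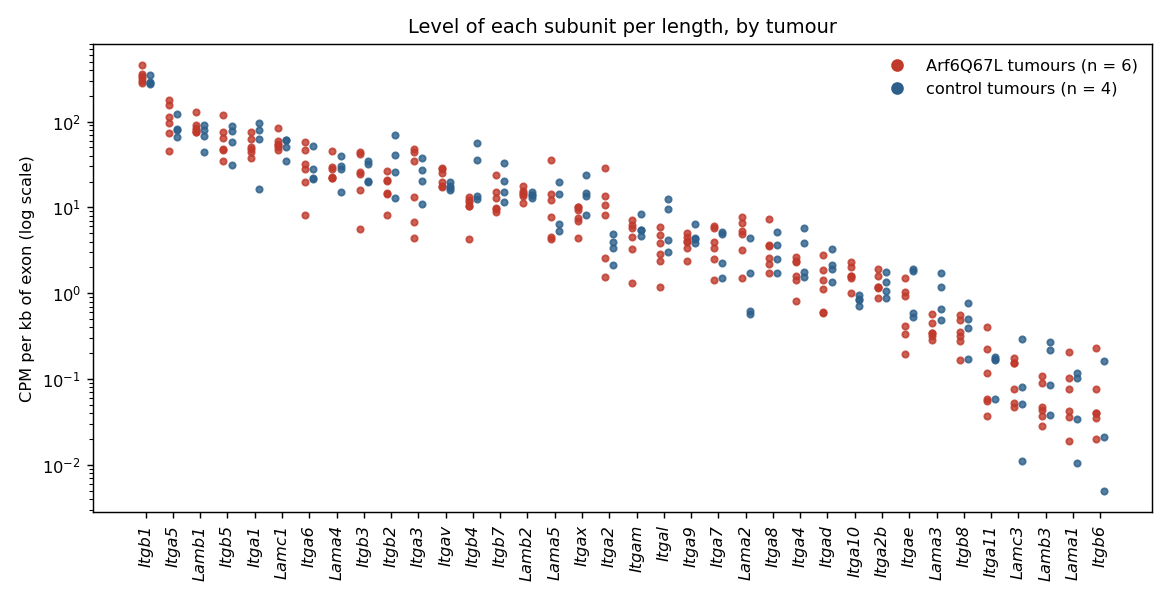
Level of each member in every tumour in CPM per kb of exon union (log axis), with Arf6Q67L and control tumours as separate points and members ordered by their mean. Itgb1 leads at 271 to 452 CPM per kb; control 2's Itgb6 value of 0 is not drawn on the log axis.

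Itgb1 encodes the beta chain shared by the collagen, laminin and fibronectin receptors. Its CPM ran from 1136 through a median of 1352 to 1846 in Arf6Q67L tumours and was 1133, 1428, 1194 and 1104 in controls 1 to 4. The groups overlapped, with Arf6Q67L 1 the highest. Its log2 fold change was 0.20 (SE 0.15, edgeR adjusted p = 0.641). Among the summed per-kb levels of the beta chains, Itgb1 held 71.9% ± 3.73 (SD, n = 6) in Arf6Q67L tumours, with a range of 67.2% to 77.0%, and 63.0% ± 6.19 (SD, n = 4) in controls, with a range of 54.8% to 68.2%. That share moves with the other chains in the sum as well as with Itgb1, and it was not tested.

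The collagen receptors consist of Itga1, Itga2, Itga10 or Itga11 with Itgb1. Itga10, best known from cartilage, spanned 5.27 to 11.9 CPM (median 8.32) in Arf6Q67L tumours and was 4.97, 4.40, 4.33 and 3.66 CPM in the controls. All 6 Arf6Q67L tumours were above all 4 controls. It was the only 1 of the 35 members tested (2.86%) whose groups did not overlap; over all genes tested the share was 2.44%, of which 1.15% higher and 1.28% lower. The means were 8.69 ± 2.3 CPM (SD, n = 6) and 4.34 ± 0.538 CPM (SD, n = 4), and the log2 fold change was 1.0 (SE 0.23). The edgeR adjusted p was 0.233, DESeq2's was 0.00320 and limma-voom's was 0.155. An exact two-sided permutation test over the 210 splits of the tumours gave an unadjusted p of 0.00952, where the smallest possible is 0.00476. Itga10 lies at chr3:96645584-96664519 (plus strand, GRCm38), and 1739 of its exon bases also belong to Gm42957. Since Gm42957 was listed at no more than 0.110 CPM, the way reads over the shared bases were counted could bear on Itga10's level, and it is not given in the sources used here.

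Itga2, a collagen receptor of epithelial cells and platelets, varied widely between Arf6Q67L tumours, from 11.1 through a median of 67.2 to 208 CPM; controls were at 28.2, 15.3, 24.0 and 35.3 CPM. Arf6Q67L 1 to 4 were above every control, Arf6Q67L 5 was within their range and Arf6Q67L 6 was below it. The log2 fold change of 1.60 (SE 0.72, edgeR adjusted p = 0.431) did not pass the test, and it was 0.96 with sex as a term and 1.02 without Arf6Q67L 3. Itga1, the most abundant collagen-binding chain, was at 694 to 1419 CPM (median 923) against 1153, 1787, 1465 and 305 CPM in controls. Control 4 was far under the other controls for Itga1, and without it the log2 fold change moved from -0.25 (SE 0.40, edgeR adjusted p = 0.848) to -0.56. Itga11, a fibroblast collagen receptor, was at 0.192 to 2.07 CPM in Arf6Q67L tumours and 0.304 to 0.939 CPM in controls (log2 fold change 0.05, SE 0.67).

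The laminin receptors use Itga3, Itga6 or Itga7 with Itgb1, or Itga6 with Itgb4, the chain that ties hemidesmosomes to keratin filaments. Itgb4 (chr11:115974709-116008412, plus strand, GRCm38) lay between 30.3 and 93.4 CPM (median 76.9) in Arf6Q67L tumours and at 88.2, 251, 95.8 and 391 CPM in the controls. In 5 of 6 Arf6Q67L tumours it was below every control, and only Arf6Q67L 1 was above control 1. Controls 2 and 4 were far above controls 1 and 3. The mean was 72.4 ± 22.0 CPM (SD, n = 6) against 207 ± 144 CPM (SD, n = 4), 2.85-fold higher in controls, with a log2 fold change of -1.51 (SE 0.44). EdgeR's adjusted p was 0.283 and DESeq2's was 0.0415; the exact two-sided permutation test gave an unadjusted p of 0.00952. DESeq2 called Itgb4 in only 2 of the 10 fits with a tumour left out. Without control 4 the edgeR log2 fold change was -0.99. In Itgb4, 537 exon bases are shared with the antisense gene B230344G16Rik, which was at 0.234 to 1.85 CPM.

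The partner of Itgb4, Itga6, was at 72.6 to 520.5 CPM (median 272) in Arf6Q67L tumours and 465, 196, 193 and 255 CPM in controls, with a log2 fold change of 0.06 (SE 0.48, edgeR adjusted p = 0.975). All 4 controls lay within the range of the Arf6Q67L tumours. Across the 10 tumours, the Pearson correlation of log2 CPM between Itga6 and Itgb4 was 0.0243 (permutation p = 0.945) and Spearman's rho was 0.00606 (permutation p = 1.0). Itga7, the muscle laminin receptor, was at 11.6 to 48.8 CPM (median 29.4) against 18.2, 12.1, 41.7 and 40.1 CPM (log2 fold change 0.14, SE 0.46, edgeR adjusted p = 0.935). Skeletal muscle markers summed to 11.9 to 552 CPM in Arf6Q67L tumours and 0.810 to 826 CPM in controls; their part in Itga7 was not tested. Itga3 lay between 25.4 and 271 CPM in Arf6Q67L tumours and between 63.4 and 218 CPM in controls (log2 fold change 0.05, SE 0.67). Of the 4 keratinocyte markers, 2 passed the filter, and the 4 summed to 6.53 to 37.2 CPM against 8.55 to 27.4 CPM. The basal keratins were near 0: Krt5 had counts in Arf6Q67L 6 and control 1 only, at 0.715 and 0.0254 CPM, and Krt14 in Arf6Q67L 6 only, at 1.17 CPM.

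Among the RGD-binding chains, Itgav pairs with Itgb1, Itgb3, Itgb5, Itgb6 and Itgb8 to bind vitronectin and latent TGF-beta. Itgav was at 184 to 308 CPM (median 241) in Arf6Q67L tumours and at 214, 192, 172 and 183 CPM in controls. Arf6Q67L 1, 2 and 6 were above all controls, and the other 3 were within the controls' range. The log2 fold change was 0.36 (SE 0.17, edgeR adjusted p = 0.446). Itga5 was at 223 to 874 CPM (median 516) against 609, 390.4, 401 and 325 CPM (log2 fold change 0.34, SE 0.35, edgeR adjusted p = 0.754; 0.0990 with sex as a term, and 0.16 to 0.55 with a tumour left out), with the highest and the lowest tumour both in the Arf6Q67L group. Itgb8, which with Itgav activates TGF-beta, was low at 1.85 to 6.18 CPM (median 3.71) and 4.34, 5.56, 1.90 and 8.45 CPM (log2 fold change -0.34, SE 0.42, edgeR adjusted p = 0.794; 0.0366 without control 4). The other tested chains had log2 fold changes between -0.01 and 0.12: Itgb3 (-0.01, SE 0.48) and Itgb5 (0.01, SE 0.38), partners of Itgav; Itga2b (0.07, SE 0.26), the platelet fibrinogen receptor's alpha chain; and Itga8 (0.12, SE 0.43), a nephronectin receptor. Platelet markers summed to 11.9 to 22.6 CPM in Arf6Q67L tumours and 9.46 to 15.9 CPM in controls, and their part in Itga2b was not tested. Itgb3 varied widely within the Arf6Q67L group, from 32.7 to 261 CPM, against 117 to 206 CPM in controls. Together, RGD-binding chains made up 47.2% ± 5.54 (SD, n = 6) of the summed alpha chains per kb in Arf6Q67L tumours and 39.4% ± 4.02 (SD, n = 4) in controls, with ranges of 41.0% to 53.8% and 36.1% to 44.8%.

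**Figure D3:**
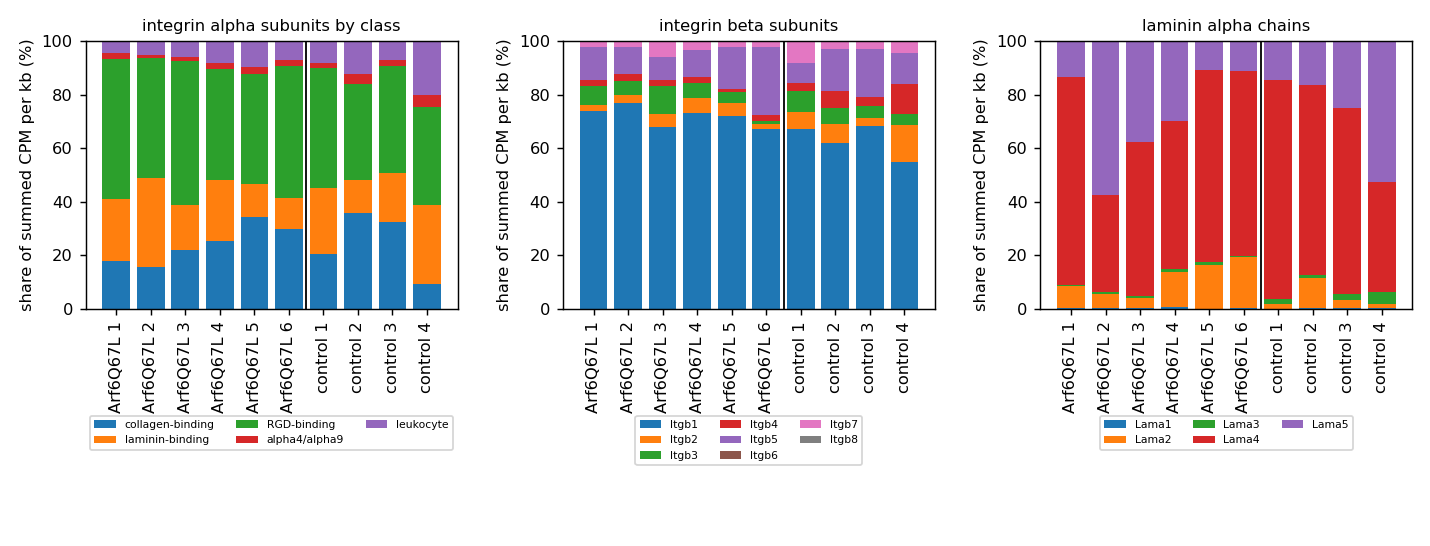
Share of each ligand class in the summed alpha chains, of each chain in the summed beta chains and of each laminin alpha chain, in percent of CPM per kb, for every tumour in turn. Itgb1 holds 54.8% to 77.0% of the beta chains; the leukocyte share of the alpha chains is highest in control 4, at 20.2%.

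Itga4 and Itga9 are close relatives that bind VCAM1 and an alternative site of fibronectin or tenascin, and Itga4 is mostly found on leukocytes. Itga4 was at 11.4 to 36.8 CPM (median 27.3) in Arf6Q67L tumours and 21.3, 54.0, 24.8 and 81.1 CPM in controls, again with controls 2 and 4 above controls 1 and 3. Its log2 fold change was -0.80 (SE 0.42, edgeR adjusted p = 0.489), and -0.35 without control 4. Itga9 was at 18.2 to 38.4 CPM (median 30.7) against 32.6, 48.9, 29.5 and 33.8 CPM (log2 fold change -0.28, SE 0.21, edgeR adjusted p = 0.644). Both groups overlapped for either gene. In Itga4, 1124 exon bases are shared with the antisense gene Cerkl, at 0.533 to 2.15 CPM.

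The leukocyte chains are Itgb2 with its alpha partners Itgal (LFA-1, on lymphocytes), Itgam (Mac-1, on macrophages and neutrophils), Itgax (on dendritic cells and macrophages) and Itgad, and Itgb7 with Itgae (on lymphocytes lodged in epithelia) or Itga4. Itgam and Itgax are neighbours on chromosome 7. The 250 bases before the transcription start (RefSeq, GRCm38.p6, plus strand, 5′ to 3′) are shown for these neighbours and for Itga10, the member whose groups did not overlap. Capitals mark GAGGAA or its reverse complement TTCCTC, the core of purine-rich sites known to be bound by the myeloid factor PU.1; both strands were searched.
Itgam, chr7:128062390-128062639: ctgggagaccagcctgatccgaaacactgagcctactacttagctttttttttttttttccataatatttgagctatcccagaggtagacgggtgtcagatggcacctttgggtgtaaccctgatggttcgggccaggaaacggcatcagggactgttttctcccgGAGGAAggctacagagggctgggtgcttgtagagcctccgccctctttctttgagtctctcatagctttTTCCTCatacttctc
Itgax, chr7:128129300-128129549: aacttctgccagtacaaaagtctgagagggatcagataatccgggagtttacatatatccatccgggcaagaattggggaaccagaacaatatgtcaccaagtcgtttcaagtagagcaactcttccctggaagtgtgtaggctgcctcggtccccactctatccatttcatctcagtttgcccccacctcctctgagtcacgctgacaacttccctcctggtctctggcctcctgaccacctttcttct
Itga10, chr3:96645334-96645583: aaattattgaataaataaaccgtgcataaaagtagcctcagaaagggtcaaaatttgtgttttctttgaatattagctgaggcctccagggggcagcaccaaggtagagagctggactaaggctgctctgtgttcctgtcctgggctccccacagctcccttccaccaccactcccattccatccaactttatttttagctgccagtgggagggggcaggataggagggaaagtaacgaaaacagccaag
The Itgam window held 2 matches, which begin 84 and 15 bases before the start, and the windows of Itgax and Itga10 held none. Of 32851 such windows over all genes, 23.3% held a match, as did 13 of the 26 windows found for 23 members. A match is a run of letters and says nothing about binding.

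The leukocyte class had the same sign throughout, and Itgax and Itgb2 were its members of lowest p. Itgax (chr7:128129547-128150657, plus strand) was at 21 to 48.6 CPM (median 40.4) in Arf6Q67L tumours and 64.4, 71.3, 39.5 and 115 CPM in controls. Controls 1, 2 and 4 were above every Arf6Q67L tumour, and control 3 was within their range. The log2 fold change was -0.91 (SE 0.30, edgeR adjusted p = 0.328; exact two-sided permutation p = 0.0286, unadjusted). Itgb2 (chr10:77530252-77565708, plus strand) was at 24.9 to 81.1 CPM (median 53.5) against 79.3, 124, 39.6 and 212 CPM. Here controls 2 and 4 were above all Arf6Q67L tumours, control 1 was below the highest of them and control 3 was in the lower part of their range. Its log2 fold change was -1.09 (SE 0.43, edgeR adjusted p = 0.385; exact two-sided permutation p = 0.119, unadjusted). Itgal followed with 7.86 to 38.7 CPM (median 22.1) against 27.6, 63.7, 19.8 and 81.3 CPM, the same order of controls, and a log2 fold change of -1.06 (SE 0.48, edgeR adjusted p = 0.430).

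The other leukocyte chains had log2 fold changes of -0.73 for Itgae (SE 0.60), -0.63 for Itgad (SE 0.45), -0.59 for Itgb7 (SE 0.35) and -0.33 for Itgam (SE 0.39), each with overlapping groups. Itgam shares 3450 exon bases with Gm49368 on the same strand, listed at 0 to 0.128 CPM, so its level is uncertain. All 7 signs stayed negative when each of the 10 tumours was left out in turn, with a class median from -0.96 (without control 1) to -0.58 (without control 4). Control 4 weighed most on the 3 members named above: without it, log2 fold changes were -0.58 for Itgax, -0.58 for Itgb2 and -0.67 for Itgal. It was -0.12 for Itgam and -0.45 for Itgae without control 4, -0.40 for Itgae without control 2, and -0.36 for Itgad and -0.23 for Itgb7 without control 1. In bulk tumours, fewer cells of a type and less RNA per cell cannot be told apart.

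Leukocyte markers mostly had the same sign as these chains. All 4 pan-leukocyte markers were negative (median log2 fold change -0.68), and their summed level was 351 to 713 CPM in Arf6Q67L tumours and 472 to 1218 CPM in controls. Ptprc, which encodes CD45, was at 76.3 to 200 CPM (median 120) against 159, 279, 106 and 425 CPM, a log2 fold change of -0.94 (SE 0.37, edgeR adjusted p = 0.382), in the same order of controls as Itgb2. T cell markers were negative for 6 of 6 (summed 12.3 to 70.1 against 23.9 to 256 CPM), macrophage markers for 5 of 6 (619 to 1485 against 1005 to 2544 CPM), dendritic cell markers for 4 of 5 (6.83 to 21.3 against 11 to 49.4 CPM) and neutrophil markers for 5 of 5 (9.52 to 90.6 against 40.7 to 238 CPM). Control 1 was the highest tumour for the neutrophil markers S100a8, S100a9, Cxcr2 and Retnlg, at 135, 46.5, 14.9 and 5.32 CPM. The other controls reached at most 33.9, 11.2, 4.65 and 0.740 CPM. Flt3, a dendritic marker, was also highest in control 1 (17.0 CPM). These signs were not examined without control 1. Csf3r was highest in control 4 (50.1 CPM), and DESeq2 called it lower, beside 1.42% of all genes. Mast cell markers were instead positive for 5 of 5 (37.7 to 651 against 8.14 to 60.2 CPM), and no B cell marker passed the filter. DESeq2 called 4 mast cell markers higher, beside 0.966% of all genes. The part of these cells in the integrin values was not tested.

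**Figure D4:**
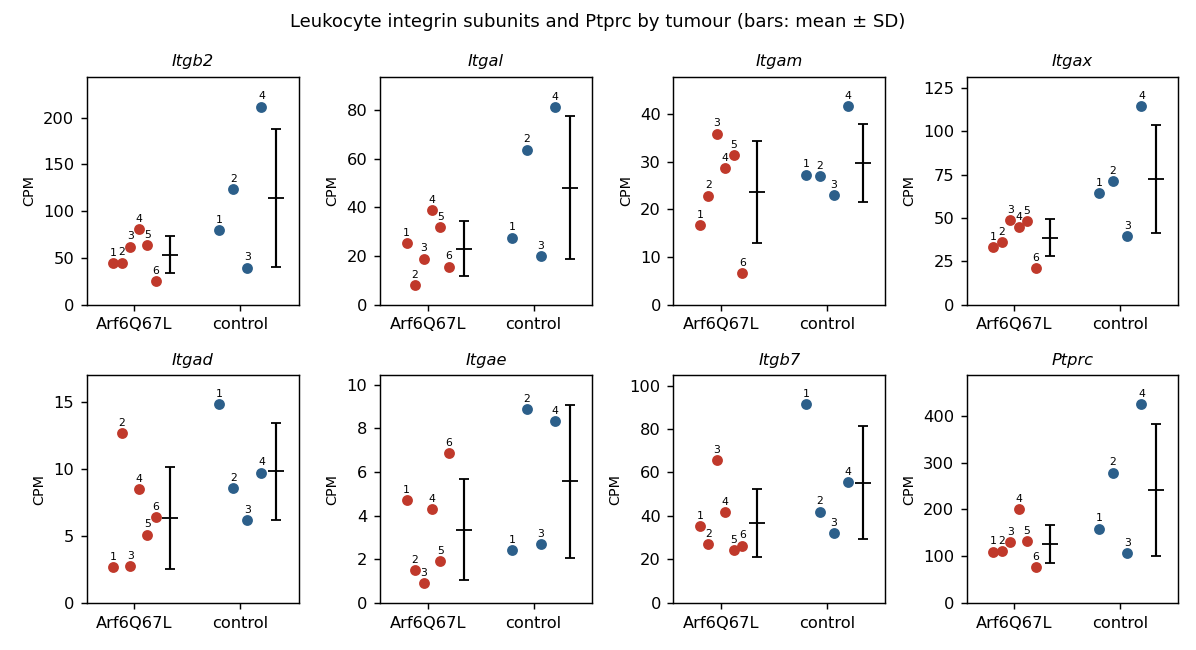
CPM of the 7 leukocyte integrin chains and of Ptprc in each Arf6Q67L (red) and control (blue) tumour, with the tumour's number at its point and bars for the mean ± SD of each group. Control 4 has the highest value of Itgb2, Itgal, Itgax and Ptprc, and control 2 the next highest, while Itgad and Itgb7 are highest in control 1.

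Partner chains were then compared over all 10 tumours as log2 CPM, for 23 integrin and 4 laminin pairs, a comparison chosen after values had been seen; p-values come from 100000 permutations and are adjusted over the 27 pairs. Pearson's r passed an adjusted p of 0.05 for 7 pairs and Spearman's rho for 2. Pairs of genes that are not partners were not correlated, so the share of them that would pass is unknown. Whether these values are particular to partner chains was not tested. The closest pair was Itgax and Itgb2, with r = 0.965 (permutation p = 6e-05, adjusted 0.00162) and rho = 0.879 (permutation p = 0.00182, adjusted 0.0379). Leaving out the 2 tumours farthest from the median of Itgax left r at 0.888. Itgal and Itgb2 had r = 0.834 (permutation p = 0.00375, adjusted 0.0253) and rho = 0.855 (permutation p = 0.00281, adjusted 0.0379), with r = 0.871 without the farthest 2. For Itgam and Itgb2, r was 0.770 (permutation p = 0.00997, adjusted 0.0449) and rho 0.733 (permutation p = 0.0203, adjusted 0.109), with r = 0.699 without the farthest 2. In contrast, r was 0.334 for Itgad and Itgb2 (permutation p = 0.348; rho 0.467, permutation p = 0.180) and -0.0848 for Itgae and Itgb7 (permutation p = 0.817; rho 0.0545, permutation p = 0.892).

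For the other 4 pairs that passed, r was 0.134 to 0.541 without the 2 tumours farthest from the median of the first gene named. It also fell, by less, for Itgax and for Itgam with Itgb2. For Lamb1 and Lamc1, r was 0.931 (permutation p = 0.00239, adjusted 0.0215; rho 0.806, permutation p = 0.00737, adjusted 0.0663) and 0.490 without them. For Lama4 and Lamc1, r was 0.876 (permutation p = 0.00189, adjusted 0.0215; rho 0.770, permutation p = 0.0128, adjusted 0.0867) and 0.541 without them. Lama4 and Lamb1 went from 0.801 (permutation p = 0.00959, adjusted 0.0449; rho 0.539, permutation p = 0.115, adjusted 0.387) to 0.134, and Itgav and Itgb1 from 0.751 (permutation p = 0.0117, adjusted 0.0450; rho 0.661, permutation p = 0.0442, adjusted 0.199) to 0.354. Within the 6 Arf6Q67L tumours alone, no pair passed the adjustment in an exact permutation test; r was 0.947 for Itgax and Itgb2 (exact permutation p = 0.0139, adjusted 0.188), 0.561 for Itgal and Itgb2 and 0.912 for Lamb1 and Lamc1. The 4 controls are too few for such a value. All pairs share libraries and the genotype difference, so the pooled values include it.

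Of the 5 laminin alpha chains, Lama3 and Lama2 had the lowest p, in opposite directions. Lama3, part of the epithelial laminin of skin that binds Itga6 with Itgb4, was at 3.03 to 6.23 CPM (median 3.70) in Arf6Q67L tumours and 6.95, 5.28, 12.7 and 18.7 CPM in controls. In 5 of 6 Arf6Q67L tumours it was below every control, with only Arf6Q67L 2 above control 2. The log2 fold change was -1.39 (SE 0.35). The adjusted p was 0.248 by edgeR and 0.0174 by DESeq2, and the exact two-sided permutation test gave an unadjusted p of 0.00952. The log2 fold change was -0.99 without control 4 and -0.91 by limma-voom. Lama2, the laminin of muscle and peripheral nerve, was at 24.4 to 125 CPM (median 83.1) against 10.2, 71.2, 28.2 and 9.43 CPM. Arf6Q67L 1, 4, 5 and 6 were above all controls, control 2 stood apart from the other controls, and the log2 fold change was 1.42 (SE 0.64, edgeR adjusted p = 0.429), or 2.32 without control 2. Schwann cell markers summed to 3.68 to 8.55 CPM in Arf6Q67L tumours and 4.13 to 13.1 CPM in controls, and fibroblast markers to 1133 to 2580 against 1158 to 1978 CPM; their part was not tested.

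**Figure D5:**
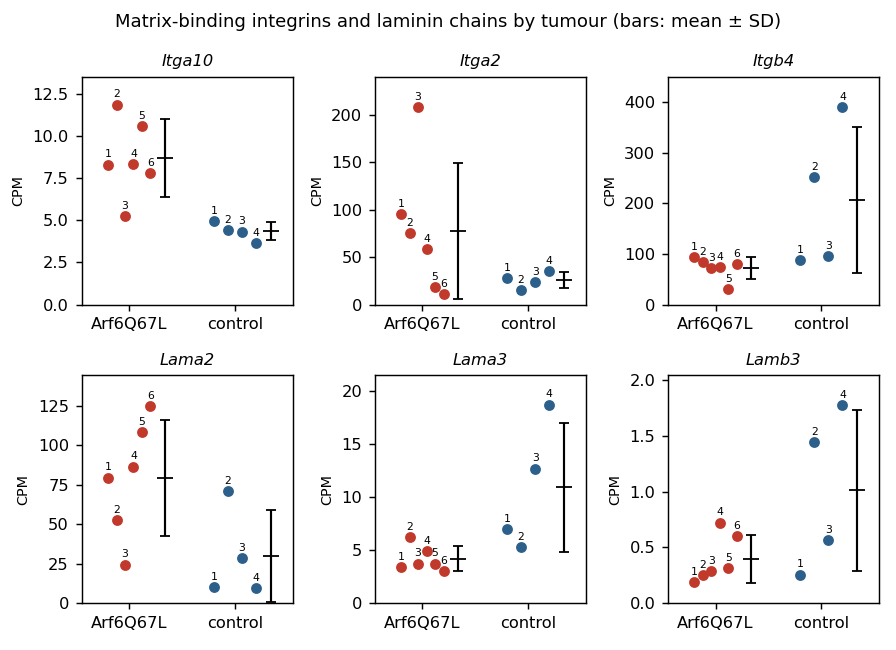
CPM of Itga10, Itga2, Itgb4, Lama2, Lama3 and Lamb3 in each Arf6Q67L (red) and control (blue) tumour, with the tumour's number at its point and bars for the mean ± SD of each group. All 6 Arf6Q67L tumours are above the controls for Itga10, and control 4 is the highest tumour for Itgb4, Lama3 and Lamb3.

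Lama4, typical of vessels and mesenchyme, was the most abundant alpha chain on average, at 264 to 543 CPM (median 304) against 362, 335, 478 and 184 CPM. Its log2 fold change was -0.00 (SE 0.28, edgeR adjusted p = 0.998). Lama5, a broad basement membrane chain, varied from 48.8 to 401 CPM in Arf6Q67L tumours and 60.8 to 223 CPM in controls (log2 fold change 0.19, SE 0.63). Lama1, a mainly embryonic chain, was at 0.182 to 2.01 CPM (median 0.575) against 0.101, 1.01, 1.13 and 0.335 CPM (log2 fold change 0.29, SE 0.75, edgeR adjusted p = 0.916). Lama4 made up 61.3% ± 15 (SD, n = 6) of the laminin alpha chains per kb in Arf6Q67L tumours and 65.9% ± 17.5 (SD, n = 4) in controls, and Lama5 26.7% ± 18.8 and 27.2% ± 17.6. Lama5 exceeded Lama4 in Arf6Q67L 2 (57.6% against 36.1%) and in control 4 (52.6% against 41.1%). Lama2 held 11% ± 6.10 (SD, n = 6) and 4.36% ± 4.57 (SD, n = 4), with overlapping ranges, and Lama3 0.844% ± 0.201 and 2.44% ± 1.53.

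Of the beta chains, Lamb3, which pairs with Lama3 in the epithelial laminin, was near the lower limit of the counts, at 7 to 53 counts per tumour. It was at 0.189 to 0.721 CPM (median 0.300) in Arf6Q67L tumours and 0.254, 1.45, 0.564 and 1.78 CPM in controls, with a log2 fold change of -1.35 (SE 0.56, edgeR adjusted p = 0.397), or -0.92 without control 4. Controls 2 and 4 were above every Arf6Q67L tumour and control 1 was among them. Lama3 and Lamb3 had a Pearson r of 0.517 over the 10 tumours (permutation p = 0.120; rho 0.285, permutation p = 0.425), and r was 0.0506 without the 2 farthest. Lamb1, the general beta chain, was at 745 to 1276 CPM (median 819) against 796, 668, 900.0 and 438 CPM (log2 fold change 0.34, SE 0.22, edgeR adjusted p = 0.586; 0.20 without Arf6Q67L 1 and 0.17 without control 4), and Lamb2, of vessel and synaptic basement membranes, at 68.7 to 107 CPM (median 88.2) against 93.1, 77.3, 84.4 and 83.7 CPM (log2 fold change 0.06, SE 0.12, edgeR adjusted p = 0.885). Lamc1, the gamma chain of most laminins, was at 389 to 697 CPM (median 448) against 507, 419, 509.9 and 288 CPM, a log2 fold change of 0.16 (SE 0.20, edgeR adjusted p = 0.799). Control 4 was the lowest tumour for Lamb1, Lamc1 and Lama4 alike. Lamc3 was at 0.286 to 1.08 CPM (median 0.697) against 1.77, 0.314, 0.493 and 0.0671 CPM (log2 fold change -0.01, SE 0.71, edgeR adjusted p = 0.998); the last of these is under the 0.100 CPM that 3 counts make in control 4.

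Genes that work with these chains were read from 5 lists. None of them held a gene past edgeR's adjusted threshold, which 0 of all 17286 genes tested passed. Of 22 tested integrin activation and adaptor genes, 12 were positive and 10 negative (median 0.02). At an unadjusted p under 0.05, where all genes tested gave 4.65% higher and 7.05% lower, 2 were higher, Vcl (vinculin; log2 fold change 0.66, SE 0.24, edgeR adjusted p = 0.357) and Parva (parvin alpha; 0.29, SE 0.12, edgeR adjusted p = 0.414), and 3 lower: Fermt3 (kindlin-3, the kindlin of blood cells; -0.70, SE 0.31, edgeR adjusted p = 0.415), Sharpin, an integrin inactivator (-0.32, SE 0.13, edgeR adjusted p = 0.403), and Parvg, the parvin of blood cells, named after its value was seen (-0.80). The 5 tetraspanins, membrane partners of laminin-binding integrins, had a median of 0.01 with 3 positive, and their lowest p-values were those of Cd151 (0.31, SE 0.17) and Cd9 (0.25, SE 0.19). Basement membrane partners were positive for 5 of 9 (median 0.03), with Nid1 (nidogen, the linker to collagen IV; 0.41, SE 0.25) and Hspg2 (perlecan; 0.33, SE 0.21) on 1 side and Ntn4 (a netrin that binds laminin gamma chains; -0.92, SE 0.56) on the other. Ntn4 was at 101 CPM in control 1 but at 18.9, 21.4 and 8.89 CPM in the other controls, against 13.5 to 26.5 CPM in Arf6Q67L tumours.

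Among 9 RGD and matrix ligands, 4 were positive and 5 negative (median -0.10), and 3 were higher at an unadjusted p under 0.05, beside 4.65% of all genes. Mfge8, a phagocytic bridge that binds Itgav receptors, averaged 214 CPM ± 45.1 (SD, n = 6) in the Arf6Q67L group and 142 CPM ± 25.8 (SD, n = 4) in controls (log2 fold change 0.59, SE 0.18, edgeR adjusted p = 0.286). Its relative Edil3 was at 23.2 ± 17.5 and 6.12 ± 4.04 CPM (1.93, SE 0.63, edgeR adjusted p = 0.323). Npnt, the ligand of Itga8, was at 46.4 ± 36.6 and 20.1 ± 4.91 CPM (1.21, SE 0.50, edgeR adjusted p = 0.399). Both were highest in Arf6Q67L 2, at 55.3 CPM for Edil3 and 116 CPM for Npnt. The lowest p-values among the negative ligands were those of Fbn1 (-0.45, SE 0.26) and Spp1, or osteopontin (-0.42, SE 0.25). DESeq2 called 1 gene of this list, Edil3 (adjusted p = 0.0375), beside 0.966% of all genes called higher.

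Of the 7 tested counter-ligands of leukocyte integrins, 3 were positive and 4 negative (median -0.23), and 2 were lower at an unadjusted p under 0.05, beside 7.05% of all genes. Icam2, the endothelial ligand of Itgal with Itgb2, was at 1.25 to 2.91 CPM (median 1.93) in Arf6Q67L tumours and 5.15, 4.43, 7.19 and 5.67 CPM in controls. It was below all controls in 6 of 6 tumours, as were 1.28% of all genes tested. The log2 fold change was -1.55 (SE 0.26). Its adjusted p was 0.199 by edgeR and 9.4e-06 by DESeq2. DESeq2 called no other gene of the list, and it called 1.42% of all genes lower. Icam1 averaged 12.4 CPM ± 3.67 (SD, n = 6) in the Arf6Q67L group and 24.1 CPM ± 17.0 (SD, n = 4) in controls (log2 fold change -0.96, SE 0.40, edgeR adjusted p = 0.403). Its controls were at 13.2, 24.4, 10.9 and 48.0 CPM, with control 4 far above the others and controls 1 and 3 within the Arf6Q67L range of 7.95 to 18.1 CPM. Endothelial markers, which mark the cells known for Icam2, were negative for 5 of 6 (median -0.74). Their sums were 65.5 to 256 CPM in Arf6Q67L tumours and 118 to 282 CPM in controls. The 256 CPM was in Arf6Q67L 1, where Cdh5 alone was at 184 CPM. DESeq2 called Pecam1 (adjusted p = 0.0338) and Emcn (adjusted p = 0.0158) lower, beside the same 1.42% of all genes. The part of endothelial cells was not tested. Jam3, a junction protein bound by Itgam, was at 5.28 ± 3.70 and 3.23 ± 2.74 CPM (0.71, SE 0.65).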

How the data were processed

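Libraries of 10 tumours were made from polyadenylated RNA after Qiagen RNeasy extraction with an Illumina TruSeq Stranded kit, as stated per the labels' protocols. The authors deposited raw read counts per Ensembl gene, 52636 rows with 1 column per tumour; 0 columns were left without a sample. STAR 2.5.2b, featureCounts 1.5.1, DESeq2 1.18.0 and GRCm38 are named without their roles, per the submitters' processing notes. The strand setting, the handling of multi-mapping reads and the annotation release were not given in the sources used here, which bears on members that share exon bases with another gene.

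Symbols (52489 rows matched), coordinates and exon lengths came from GENCODE M21 for GRCm38. Groups followed the genotype label; tumours were numbered in accession order, which pairs nothing. Genes were kept by edgeR's filterByExpr at a minimum count of 10, which left 17286 genes, and the counts were scaled by TMM. They were tested with edgeR 4.0.16 (glmQLFit, robust, genotype as the only term), with p-values adjusted by Benjamini-Hochberg across the genes kept and called under 0.05 (common biological coefficient of variation 0.416). CPM values use the same library sizes and factors; correlations use log2 CPM with a prior count of 2. Alternatives were DESeq2 1.42.0, limma 3.58.1 (voom with quality weights), RLE or no scaling factors, no filter on low counts, sex as a term, each tumour left out in turn, an exact two-sided permutation test over all 210 splits into 6 and 4, and the longest transcript as gene length. The edgeR code was tested on simulated counts. R 4.3.3 and Python 3.11.15 were used. Promoter sequences were matched by symbol to RefSeq, for 23 of 36 members.

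The members, the lists and the rule for naming genes were chosen with earlier results of these data known. The rule takes, in each class, up to 3 members of lowest unadjusted p and the member of highest level per kb, and in each partner list up to 2 tested genes of lowest unadjusted p in each direction.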

Additional observations from a re-analysis of the deposited data

Results flagged for a closer look

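Each member's log2 CPM values were looked at within the 6 Arf6Q67L tumours and within the 4 controls, which makes 72 groups. Dixon's test at the 95% level was used on this log2 scale. A tumour was picked out where its gap to the nearest other exceeded the critical share of the group's range. Chance picks out about 1 in 20 groups, and 3 were found. Itga11 in control 1 was at 0.304 CPM, while the other controls were at 0.849 to 0.939 CPM. Itgb4 in Arf6Q67L 5 was at 30.3 CPM, below the other Arf6Q67L tumours at 72.2 to 93.4 CPM. Lamb1 in Arf6Q67L 1 was at 1276 CPM, above the others of its group at 745 to 893 CPM.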

How the results depend on the processing

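EdgeR called 0 genes in each direction. DESeq2 called 167 genes higher and 246 lower, with 1 member higher (Itga10) and 2 lower (Itgb4 and Lama3); limma-voom called 1 gene higher and 1 lower. Leaving out each tumour in turn gave 0 to 1 genes higher, the 1 without control 1, and 0 lower. After adjustment over all genes, the exact permutation test called 0. With 210 splits its unadjusted p cannot be under 0.00476. Over 17286 genes, a call would need very many genes near that value at once, so this 0 says little about any gene. With a tumour left out, members at an unadjusted p under 0.05 numbered 1 to 3 higher and 3 to 7 lower (3.34% to 5.42% and 4.31% to 8.19% of all genes), and members called by DESeq2 1 to 2 higher and 0 to 3 lower (0.476% to 1.32% and 0.561% to 2.32%); these counts were added after the values had been seen. With a tumour left out, the median over all members ranged from -0.15 (without Arf6Q67L 2) to 0.0781; it was 0.0794 with library totals only, and the median over all genes was 0.0467 with library totals only and 0.027 with no filter on low counts. With the longest transcript as length, RGD-binding chains held 40.8% (Arf6Q67L) and 33.4% (control) of the alpha chains, and Lama3 0.521% of the laminin alpha chains in Arf6Q67L tumours.

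There were 595 recomputed member values (35 members, 17 alternatives each). Of these, 521 kept direction and side of the threshold, 3 came past it (the DESeq2 calls) and 71, in 15 members, changed sign. None of the 15 had been called, and 20 members never changed sign. For the permutation test, only the direction is informative in this count. Values of changed sign under other settings were, for Itga11, -0.00494 (voom) and -0.28 (permutation, as a difference of log2 CPM); for Itga3, -0.15 (sex) and -0.33 (permutation); for Itga6, -0.0164 (sex) and -0.0847 (permutation); for Itgb3, 0.00158 (DESeq2), 0.00149 (RLE), 0.0148 (library totals) and 0.00266 (no filter); for Itgb5, -0.23 (voom) and -0.00211 (permutation); for Lama4, 0.00831 (DESeq2 and RLE), 0.0440 (library totals), 0.0105 (no filter) and 0.0265 (permutation); for Lama5, -0.00796 (permutation); and for Lamc3, 0.0104 (DESeq2), 0.58 (voom), 0.0465 (library totals), 0.00183 (no filter), 0.0936 (sex) and 0.48 (permutation). With a tumour left out, the ranges were -0.56 to 0.028 for Itga1, -0.54 to 0.26 for Itga11, -0.23 to 0.36 for Itga3, -0.18 to 0.43 for Itga6, -0.10 to 0.40 for Itga7, -0.24 to 0.43 for Itga8, -0.0729 to 0.28 for Itga2b, -0.22 to 0.21 for Itgb3, -0.25 to 0.22 for Itgb5, -0.61 to 0.0366 for Itgb8, -0.25 to 0.70 for Lama1, -0.20 to 0.21 for Lama4, -0.40 to 0.59 for Lama5, -0.00673 to 0.13 for Lamb2 and -0.37 to 1.19 for Lamc3. The cause of these changes was not tested. No paired analysis was possible because the labels link no Arf6Q67L tumour to a control tumour. At 3 counts a library reaches 0.0734 to 0.105 CPM, so Itgb6, Lama1 and Lamc3 are near what the depth can show.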
